A study of Mus musculus with 2 samples.

Results

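The acyl-CoA dehydrogenase genes were followed in the hearts of csMed1-/- mice and of Med1fl/fl mice. They are the 10 genes Acadvl, Acadl, Acadm, Acads, Ivd, Acad8, Acadsb, Acad9, Acad10 and Acad11, chosen by gene symbol as a family of enzymes and found among 22882 gene symbols in the expression data. Each symbol stands on 1 row, and all 10 were above 0 in both libraries. Control mice were homozygous for a loxP-flanked Med1 allele (Med1fl/fl). The csMed1-/- mice carried the same floxed alleles together with a Cre transgene driven by the α-myosin heavy chain promoter, which deletes Med1 in cardiomyocytes and leaves the other cells of the heart with the floxed gene. All mice were of the C57BL6/J background, of mixed sex, untreated and 23 days old. RNA from the hearts of 5 mice was combined within each genotype, so each genotype is 1 library with no replicates, and no test of a genotype difference was possible for any gene. Levels are given as FPKM, a fragment count corrected for transcript length and library size, which allows levels to be compared between genes.

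Acyl-CoA dehydrogenases are flavoenzymes that hold FAD and remove a pair of hydrogens from an acyl-CoA, the first step of every turn of mitochondrial β-oxidation. Separate family members take fatty acyl chains of different length, and others act in the breakdown of the branched-chain amino acids leucine, isoleucine and valine. The electrons pass to the electron transfer flavoprotein and on to the respiratory chain. Fatty acids are the main fuel of the postnatal heart, and several of these genes are known targets of the nuclear receptor PPARα and its coactivator PGC1α. Med1 is the Mediator subunit that binds nuclear receptors.

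The DNA just upstream of Acadm, Acadvl and Acads is shown because Acadm was the member furthest below control, Acadvl was the most abundant member, and Acads was the straight-chain member closest to control. Each sequence is the 250 bases before the annotated RefSeq start (GRCm38.p6), written 5′ to 3′ along the gene. Capitals mark each match to AGGTCA, the core element that nuclear receptors bind, on either strand.
Acadm (chr3:153944644-153944893, minus strand): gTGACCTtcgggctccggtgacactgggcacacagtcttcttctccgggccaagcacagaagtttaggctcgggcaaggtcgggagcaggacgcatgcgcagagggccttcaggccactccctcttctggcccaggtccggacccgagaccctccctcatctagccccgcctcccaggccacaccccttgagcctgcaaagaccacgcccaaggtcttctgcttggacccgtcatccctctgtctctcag
Acadvl (chr11:70015429-70015678, minus strand): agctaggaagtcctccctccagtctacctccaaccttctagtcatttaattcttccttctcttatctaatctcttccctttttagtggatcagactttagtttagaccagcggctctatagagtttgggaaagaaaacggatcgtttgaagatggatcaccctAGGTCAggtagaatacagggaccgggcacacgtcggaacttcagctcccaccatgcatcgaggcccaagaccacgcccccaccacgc
Acads (chr5:115119347-115119596, minus strand): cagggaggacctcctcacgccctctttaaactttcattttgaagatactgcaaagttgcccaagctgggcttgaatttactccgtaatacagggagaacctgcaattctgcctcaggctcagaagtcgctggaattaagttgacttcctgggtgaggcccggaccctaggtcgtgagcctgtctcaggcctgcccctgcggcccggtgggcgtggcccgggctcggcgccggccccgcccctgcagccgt
AGGTCA was searched on both strands in the 250 bases upstream of 32851 annotated starts and was present in 14.0% of them. Of the 9 family members with a sequence, which leaves out Acad9, Acadm and Acadvl held it and the other 7 did not. Those 7 were Ivd and Acad11, both lower by more than 2-fold, and Acadl, Acads, Acad8, Acad10 and Acadsb, all inside 2-fold. In Acadm the element lay on the opposite strand 244 to 249 bases before the start, where it was part of the longer AAGGTCA, found in 4.08% of all windows. In Acadvl it lay 82 to 87 bases before the start. A direct repeat of AGGTCA with any single base between the copies was found in 0 of the 9 windows and in 0.0335% of all windows. A match of letters is a description and not a bound site. Only exact matches within these 250 bases were searched, so variant or more distant elements would be missed.

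The primers that the study used to measure Acadm by quantitative PCR were located in its reference transcript (GENCODE M21) by exact match and are shown because they mark the stretch of the message that was read by that second method.
Acadm forward: ggccagaagatgtggataac
Acadm reverse: gtcggcttccacaatgaa
The forward primer lies in exon 7 (chr3:153936316-153936335) and the reverse primer in exon 8 (chr3:153933054-153933071), and they enclose 123 bases of the transcript.

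Med1 itself had 3.38 FPKM in the Med1fl/fl library and 0.412 FPKM in the csMed1-/- library. Summed over all genes, FPKM came to 780366 in the control and 716365 in the csMed1-/- library. The number of reads is not given, so the depth behind each value and its counting error are unknown. Among 2461 rows of low values, the commonest ratio between the libraries was held by 64 rows. If those rows held the same number of reads in both libraries, the csMed1-/- library had 1.39 times as many reads as the Med1fl/fl library. This also requires that FPKM was scaled to mapped fragments and nothing else. Neither condition could be checked. An exact 0 in these files can be a failed estimate, since 6 rows at 0 in control reached 100 FPKM or more in csMed1-/- heart and 6 rows showed the reverse. Among them, the cardiac muscle genes Actc1 and Mb were listed at 0 in control and at 9189 and 1040 FPKM in csMed1-/- heart.

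Transcripts of the family were less abundant in csMed1-/- than in control heart, but very unequally so. Acadm, the medium-chain enzyme gene, was 6.88-fold lower, Acad11 3.81-fold, Ivd 2.70-fold, Acad9 2.44-fold and Acadvl 2.17-fold lower. Acads, Acad8 and Acadsb differed from control by 1.10-fold or less. Hence 5 of the 10 genes were lower by more than 2-fold, and 0 were higher by more than 2-fold. The study states the same fold threshold, but its differential expression also used a cutoff on the false discovery rate. That cutoff was not applied here, so these counts are not the study's calls. The background was set by the 10489 genes tested, those with a value above 0 in each library of which the larger reached 1 FPKM. Of these, 18.0% were lower and 13.6% higher by more than 2-fold, or 31.5% in either direction. Among genes that reached 10 FPKM in either library 16.3% were lower by more than 2-fold, as were 5 of the 8 members at that level. On the log2 scale, the median ratio over control was -0.88 for the family and -0.07 for all genes tested, whose quartiles were -0.72 and 0.55. All 10 ratios lay below 1, as did those of 5579 of the 10489 genes tested. With ratios centred on the median of all genes, however, Acadsb had a log2 ratio of 0.05. In heart tissue, fewer cardiomyocytes and less message per cardiomyocyte cannot be told apart.

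**Figure D1:**
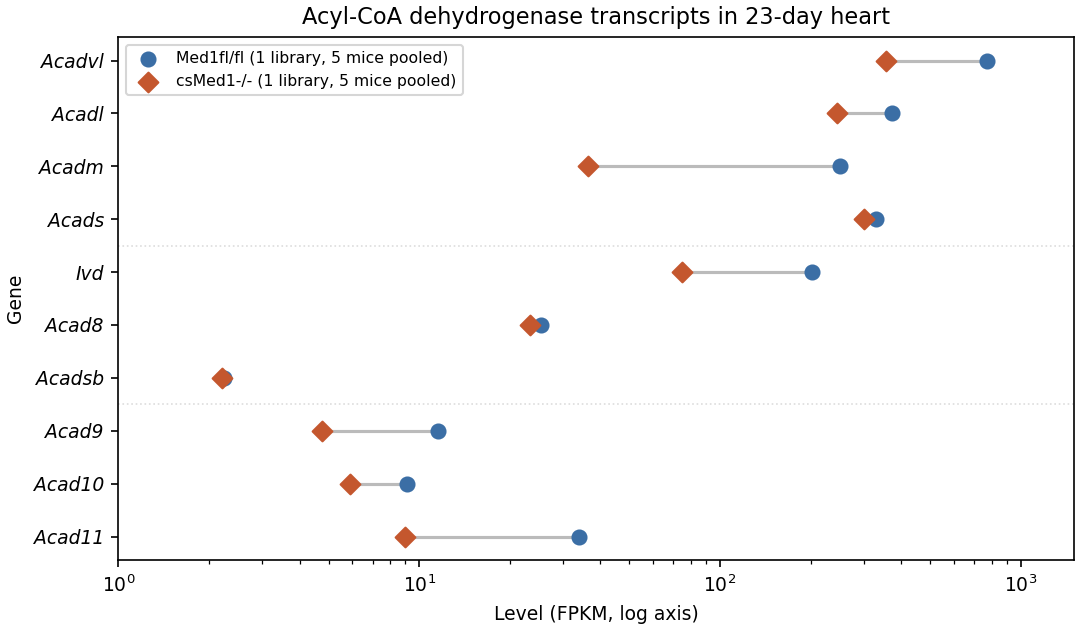
Level of each acyl-CoA dehydrogenase gene (FPKM, log axis) in the Med1fl/fl library (circles) and the csMed1-/- library (diamonds), with 1 pooled library per genotype and hence no error bars. Acadm shows the longest distance, from 251 to 36.4 FPKM, while the symbols of Acads, Acad8 and Acadsb nearly coincide.

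Among the enzymes of straight-chain fatty acids, the genotype difference was not ordered by chain length. Acadvl (chr11:70010183-70015411, minus strand, 20 exons) encodes the very-long-chain enzyme of the inner mitochondrial membrane. It had 771 FPKM in Med1fl/fl and 356 FPKM in csMed1-/- heart, a log2 ratio of -1.12, and 15.7% of the genes tested had a lower ratio. It was the most abundant member in both libraries. Acadl (chr1:66830839-66863277, minus strand, 11 exons), the long-chain enzyme gene, had 372 FPKM in Med1fl/fl and 245 FPKM in csMed1-/- heart. Its log2 ratio of -0.60 was inside the 2-fold limit, and 29.0% of the genes tested were lower.

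Acadm (chr3:153922357-153944632, minus strand, 12 exons) encodes MCAD, the medium-chain enzyme. Its level was 251 FPKM in Med1fl/fl and 36.4 FPKM in csMed1-/- heart, a log2 ratio of -2.78. Only 246 of the 10489 genes tested, or 2.35%, had a lower ratio. It was the one member past 4-fold. Ranked by FPKM among all genes, it was gene 443 in Med1fl/fl and gene 2235 in csMed1-/- heart, whereas Acads was gene 362 and gene 410. Acads (chr5:115110299-115119346, minus strand, 10 exons), the short-chain enzyme gene, had 330 FPKM in Med1fl/fl and 300.0 FPKM in csMed1-/- heart. With a log2 ratio of -0.14 it stood near the middle of all genes, 47.2% of which were lower.

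The other straight-chain genes can be set against Acadm as a ratio of levels within each library. Acads stood at 1.32 times the level of Acadm in control and at 8.23 times its level in csMed1-/- heart. For Acadl the corresponding values were 1.48 and 6.72, and for Acadvl they were 3.08 and 9.77. These ratios do not depend on how the libraries were scaled. They have no replicate check.

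**Figure D2:**
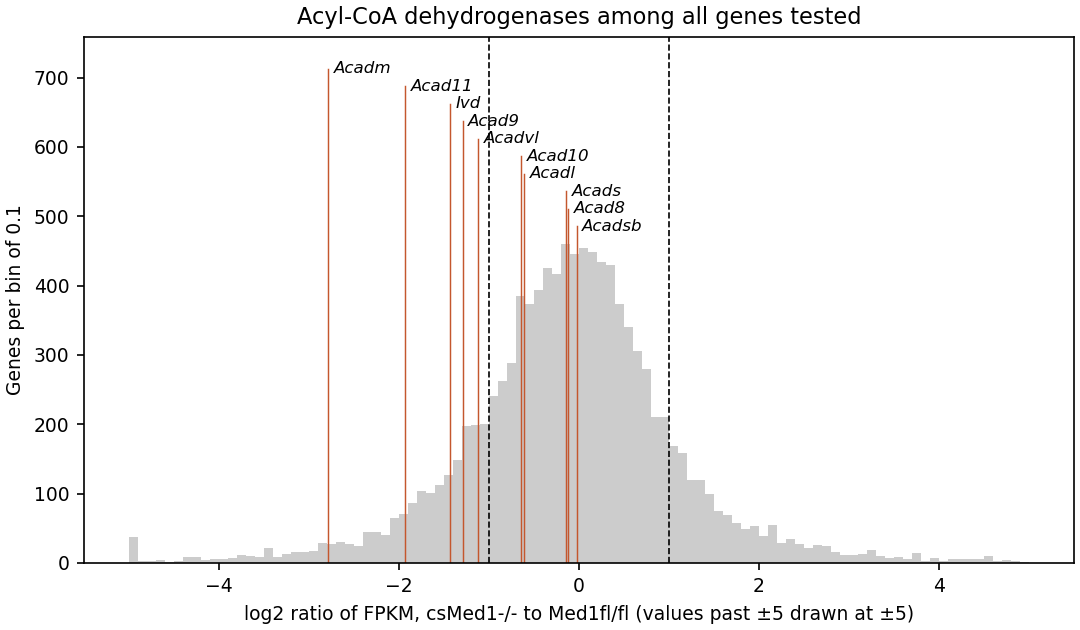
Histogram of the log2 ratio of FPKM, csMed1-/- to Med1fl/fl, for the 10489 genes tested (grey), with each acyl-CoA dehydrogenase gene as a vertical line and the 2-fold limits dashed. Acadm, Acad11, Ivd, Acad9 and Acadvl lie left of the lower limit, and Acads, Acad8 and Acadsb lie near the middle of the histogram, with Acadsb at 0.05 when ratios are centred on the median.

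Of the branched-chain enzymes, the leucine enzyme stood apart. Ivd (chr2:118861954-118882909, plus strand, 12 exons) encodes isovaleryl-CoA dehydrogenase of leucine breakdown. It had 203 FPKM in Med1fl/fl and 74.98 FPKM in csMed1-/- heart, a log2 ratio of -1.43, with 10.5% of the genes tested lower. Acad8 (chr9:26974135-26999566, minus strand, 11 exons), the isobutyryl-CoA dehydrogenase gene of valine breakdown, had 25.4 FPKM in Med1fl/fl and 23.4 FPKM in csMed1-/- heart. Its log2 ratio was -0.12, a place near the middle of all genes. Acadsb (chr7:131410601-131448944, plus strand, 11 exons), whose short/branched-chain enzyme acts on isoleucine, was the least abundant member, at 2.24 FPKM in Med1fl/fl and 2.21 FPKM in csMed1-/- heart. Its log2 ratio was -0.02, or 0.05 with ratios centred on the median of all genes.

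The remaining members are less tied to the main β-oxidation spiral. Acad9 (chr3:36065979-36092853, plus strand, 18 exons) encodes a protein needed to assemble respiratory complex I that also has long-chain dehydrogenase activity. Its level was 11.6 FPKM in Med1fl/fl and 4.74 FPKM in csMed1-/- heart, a log2 ratio of -1.29, with 12.5% of the genes tested lower. Acad11 (chr9:104063377-104127725, plus strand, 20 exons) and Acad10 are related genes whose enzymes have been linked to the breakdown of hydroxylated fatty acids. Acad11 had 34.0 FPKM in Med1fl/fl and 8.94 FPKM in csMed1-/- heart, a log2 ratio of -1.93 that put it second to Acadm in the family, with 5.65% of all genes lower. Acad10 (chr5:121621026-121660514, minus strand, 21 exons) had 9.14 FPKM in Med1fl/fl and 5.87 FPKM in csMed1-/- heart, a log2 ratio of -0.64. Acad10 was the gene closest to the 2-fold limit among the 5 inside it, and Acadvl the closest among those past it.

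The makeup of the family's messages differed between the genotypes. The 10 genes summed to 2009 FPKM in Med1fl/fl and 1057 FPKM in csMed1-/- heart, which is 0.526 of the control sum, and held 0.257% and 0.148% of all FPKM. The order of abundance in control was Acadvl, Acadl, Acads, Acadm, Ivd, Acad11, Acad8, Acad9, Acad10 and Acadsb. In csMed1-/- heart Acads stood above Acadl, Ivd above Acadm, Acad8 above Acad11 and Acad10 above Acad9. With 1 library each, no spread is known against which to set neighbours in these orders. Acadm made up 12.5% of the Med1fl/fl sum against 3.45% of the csMed1-/- sum, and Acads 16.4% against 28.4%. Acadvl accounted for 43.7% and Acadm for 22.5% of the difference between the sums, whereas Acad8, Acad9, Acad10 and Acadsb each made up less than 1% of it. Without Acadm, 4 of 9 genes were lower by more than 2-fold, against 18.0% of all genes tested, and the median log2 ratio was -0.64.

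**Figure D3:**
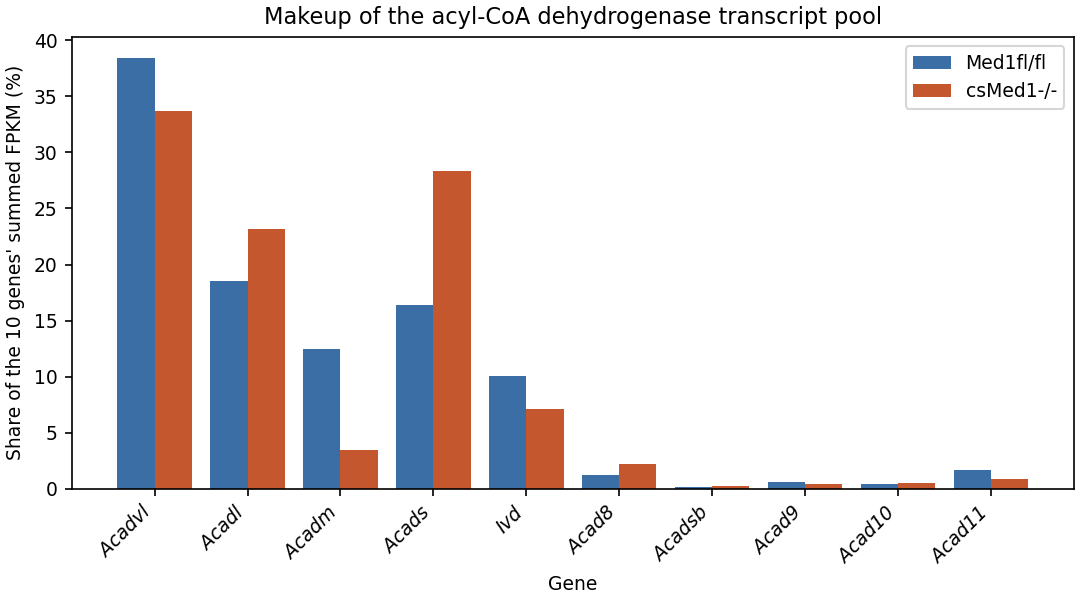
Share of each gene in the summed FPKM of the 10 acyl-CoA dehydrogenase genes (percent) in the Med1fl/fl and the csMed1-/- library. The bar of Acadm goes from 12.5% to 3.45% and that of Acads from 16.4% to 28.4%, while Acadvl is the tallest in both libraries.

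Several members share sequence or ground with other genes, and their values carry that uncertainty. Acad10 and Acad12, a family member outside the 10 genes, lie on the same strand with 2087 bases between them, and 21.8% of the 50-base words of the Acad10 reference transcript also occur in Acad12. Reads are 50 bases long, so reads from those stretches could be divided between both genes. Acad12 had 48.2 FPKM in Med1fl/fl and 34.0 FPKM in csMed1-/- heart, a log2 ratio of -0.50. For Acad9 12.9% of such words occur in other genes, among them Gm43079, whose exons overlap its own, and for Acadm 4.10%, in Gm5131. The share was 3.45% for Acad11 and 0.216% for Acadsb. In Acadl, Acads, Acadvl, Acad8 and Ivd no such word was shared.

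Exons annotated to Dvl2 on the opposite strand cover 976 exon bases of Acadvl, and those of Ackr4 cover 479 exon bases of Acad11. Libraries were directional, but whether counting used the strand is not given in the sources used here. Dvl2 had 3.86 FPKM in Med1fl/fl and 6.36 FPKM in csMed1-/- heart, far below Acadvl. Ackr4, listed under its older symbol Ccrl1, had 2.41 and 6.05 FPKM. In both pairs the neighbour was higher and the member lower in csMed1-/- heart.

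The 3 genes of the relay that takes electrons from these enzymes, and the gene of a methyltransferase that modifies it, were all lower by more than 2-fold, against 18.0% of all genes. Etfa and Etfb, the subunits of the flavoprotein, had log2 ratios of -1.79 and -1.62. Etfdh, which hands the electrons to ubiquinone, had 116 FPKM in Med1fl/fl and 29.3 FPKM in csMed1-/- heart (-1.99). The methyltransferase gene is Etfbkmt, listed under an older symbol, with a log2 ratio of -1.06.

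Of 9 genes of the steps of β-oxidation that follow the dehydrogenases, 8 were lower by more than 2-fold, against 18.0% of all genes. Their median log2 ratio was -1.94. Acaa2, the medium-chain thiolase gene, was lowest with 1595 FPKM in Med1fl/fl and 269 FPKM in csMed1-/- heart (-2.57). Echs1, the enoyl-CoA hydratase gene, had a log2 ratio of -2.01 and Hadh, the short-chain hydroxyacyl-CoA dehydrogenase gene, -1.89. Decr1, the 2,4-dienoyl-CoA reductase gene that serves unsaturated fatty acids, was inside 2-fold at -0.19. The log2 ratio of Acadm lay below those of all 9 genes, that of Acads above all 9, and that of Acadl above 8 of them. The carnitine shuttle carries acyl groups into mitochondria. There, 3 of 5 genes tested were lower by more than 2-fold, against 18.0% of all genes, with a median of -1.09. Cpt2 had a log2 ratio of -1.09 and Cpt1a one of 0.46, while Cpt1b, the muscle form, was not analysed here.

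Around the branched-chain members, 17 genes of branched-chain amino acid breakdown were tested. Of these, 13 were lower by more than 2-fold and 0 were higher, against 18.0% and 13.6% of all genes. Their median log2 ratio was -1.73. On the leucine side, next to Ivd, the methylcrotonyl-CoA carboxylase genes Mccc1 and Mccc2 had log2 ratios of -1.98 and -3.37, and Auh, the hydratase gene, had -1.43. On the valine side, next to Acad8, Hibch stood at -1.77, Hibadh at -1.73 and Aldh6a1 at -1.25, against -0.12 for Acad8 itself. Hibch was low in level, at 3.77 FPKM in Med1fl/fl and 1.11 FPKM in csMed1-/- heart. Hsd17b10 (-0.67), Ppm1k (-0.68) and Bcat2 (-0.62), also of this list, were inside 2-fold. Bckdhb, a subunit of the branched-chain ketoacid dehydrogenase that feeds all 3 dehydrogenases, was at 58.6 FPKM in Med1fl/fl and 8.42 FPKM in csMed1-/- heart (-2.80), while Bckdha, its partner subunit, was inside 2-fold at -0.52. Of the complex I assembly partners of Acad9, 3 of 5 tested were lower by more than 2-fold, against 18.0% of all genes. They were Ecsit (-1.34), Ndufaf1 (-1.19) and Tmem186 (-1.66). Tmem126b (-0.51) and Timmdc1 (0.15), the latter listed under an older symbol, were inside 2-fold.

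**Figure D4:**
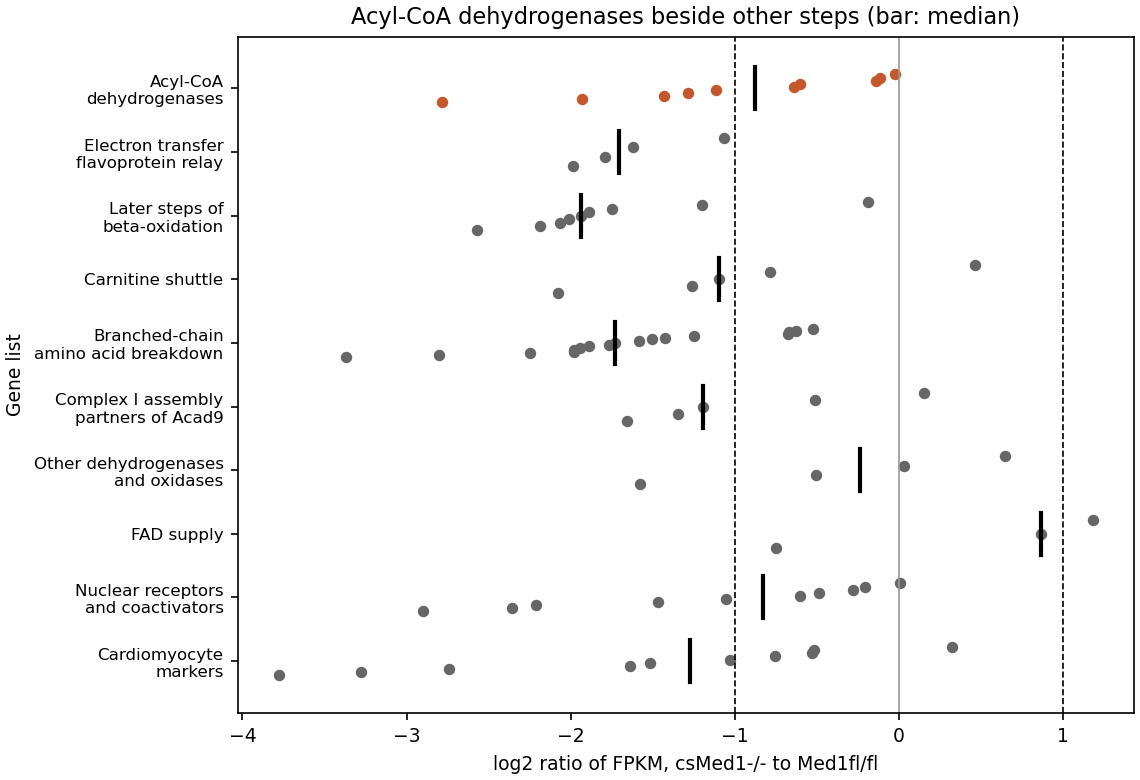
Log2 ratio of FPKM, csMed1-/- to Med1fl/fl, of each gene tested in the acyl-CoA dehydrogenase family and in 9 other gene lists. Med1 itself is left out of the nuclear receptors and coactivators. Black bars are medians and dashed lines the 2-fold limits. The family spreads from -2.78 to -0.02 (0.05 for its highest gene with centred ratios). Left of the lower limit lie 8 of 9 later β-oxidation genes, against 18.0% of all genes tested.

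Of the nuclear receptors and coactivators known to act on fatty acid oxidation genes, leaving out Med1, 5 of 10 tested were lower by more than 2-fold. The share over all genes was 18.0%. The median log2 ratio of these 10 was -0.83. Ppara had a log2 ratio of -2.90, close to that of Acadm. Rxrg, a partner receptor of PPARα, had 71.7 FPKM in Med1fl/fl and 14.0 FPKM in csMed1-/- heart (-2.36). The coactivator genes Ppargc1a and Ppargc1b stood at -2.21 and -1.47, and the receptor gene Esrra at -1.05. Ppard (-0.28), Pparg (-0.49), Rxra (-0.60), Rxrb (0.01) and Esrrb (-0.21) were inside 2-fold. Whether any of these bears on the family's levels was not tested.

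Markers of cell types also differed between the libraries, where 18.0% of all genes tested were lower and 13.6% higher by more than 2-fold. Of 10 cardiomyocyte markers tested, 6 were lower by more than 2-fold and the median log2 ratio was -1.27, with the 10 values running from -3.78 (Pln) to 0.33 (Tnnc1). The 12 cardiomyocyte markers with values summed to 62554 FPKM in Med1fl/fl and 38439 FPKM in csMed1-/- heart. The csMed1-/- sum includes 9189 FPKM of Actc1 and 1040 FPKM of Mb, which were both at 0 in control. The sums therefore do not rest on the same genes and understate the difference over the markers with a value in both libraries. Among 8 fibroblast markers, 4 stood above and 1 below the 2-fold limits, and their sum was 503 FPKM in Med1fl/fl and 1193 FPKM in csMed1-/- heart. Among 8 endothelial markers, 3 stood below and 1 above these limits, with sums of 602 and 462 FPKM. Macrophage markers had a median log2 ratio of 0.43 with 1 of 7 tested past 2-fold. Of 5 smooth muscle markers, 2 were lower and 2 were higher by more than 2-fold. Hepatocyte markers summed to 9.04 and 2.23 FPKM, adipocyte markers to 0 and 0.0183 FPKM, and the erythroid marker Alas2 had 35.8 and 82.1 FPKM. The part of the cell makeup in the family's values was not tested.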

How the data were processed

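Heart RNA of 5 Med1fl/fl and of 5 csMed1-/- mice was pooled by genotype, enriched for mRNA with oligo-dT and sequenced single-end at 50 nt as 1 directional library each. Alignment by the authors was to mm10 with TopHat v2.0.8b. The deposited values are FPKM of known genes, which the authors obtained with Cufflinks and cuffdiff v2.1.1. The submitters' processing notes also name STAR 2.4.0h, Bowtie2 and DESeq2 without a role, and the library scaling is not given in the sources used here.

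Rows that share a symbol, of 23424, were summed. The ratio of csMed1-/- to Med1fl/fl FPKM was computed for genes with a value above 0 in each library of which the larger reached 1 FPKM, and called past 2-fold. With 1 library per genotype no test was made. All 10 members are named, and pathway genes were named from the listed genes. The members and lists were chosen with earlier results of these data known. Listed symbols with no row were matched through RefSeq synonyms. Gene positions, exons and transcripts were those of GENCODE M21 (GRCm38, the assembly of mm10). Upstream sequences came from RefSeq (GRCm38.p6), where 9 of 10 members had one. Calculations used Python 3.11.15, numpy 2.4.6, pandas 2.3.3 and matplotlib 3.10.9. They were run on simulated data with planted fold changes, which checks the arithmetic only and not the variation between pools. Alternatives were pseudocounts of 0.1 and 1, other filters on low values, other scalings, the highest row of a symbol, and thresholds of 1.5-fold and 4-fold.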

Additional observations from a re-analysis of the deposited data

How the results depend on the processing

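The count of 5 members lower by more than 2-fold was the same under every pseudocount, filter, scaling and choice of rows tried. It was 7 at a 1.5-fold threshold, where 29.7% of all genes tested were lower, and 1, Acadm, at 4-fold, where 5.14% were, and 0 members were higher past the threshold under any of them. Acadsb changed sign, from -0.02 to 0.05, with ratios centred on the median of all genes. The median log2 ratio of the members, -0.88, was -0.86 with a pseudocount of 1, -0.81 with centred ratios, -0.88 with 75th percentile scaling and -0.91 when scaled without the genes among the 100 highest of either library. It was -1.20 with 10 FPKM required in at least one library, which leaves out Acad10 and Acadsb. The log2 ratio of their summed FPKM, -0.93, was -0.86 with centred ratios, -0.93 with 75th percentile scaling and -0.95 when scaled without those highest genes. Of the whole table, 3309 genes were past 2-fold, against 5686 with no filter on low values (15930 genes tested), 1706 with 10 FPKM in at least one library (5426 genes tested), 5608 at 1.5-fold and 992 at 4-fold. With 1 library per genotype no library could be left out and no paired fit made, and the variation between pools is unknown.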

Other observations

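Enzymes related to the family but working in other pathways differed in both directions between the libraries. Acox3, a branched-chain acyl-CoA oxidase gene, had 10.7 FPKM in Med1fl/fl and 16.7 FPKM in csMed1-/- heart (log2 ratio 0.65). Gcdh, the glutaryl-CoA dehydrogenase gene of lysine and tryptophan breakdown, had 41.4 and 13.9 FPKM, a log2 ratio of -1.58.

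Of 5 listed genes that supply the FAD cofactor 3 were tested, and 0 of these were lower by more than 2-fold, against 18.0% of all genes. With only 3 genes, a count of 0 does not set the list apart from that share. Slc25a32 was under 1 FPKM in both libraries, and Flad1, the FAD synthase gene, was not analysed here. The riboflavin transporter gene Slc52a2 had 4.66 FPKM in Med1fl/fl and 10.6 FPKM in csMed1-/- heart (log2 ratio 1.18). Slc52a3, another riboflavin transporter gene, stood at 0.87 and the riboflavin kinase gene Rfk at -0.75.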
